A study of Mus musculus with 282 samples.

Results

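The genes described here are those named for the subunits of the 5 oxidative phosphorylation complexes in mouse liver, those in the nucleus beside those in mitochondrial DNA. They were found by symbol, as the Nduf, Sdh, Uqcr, Cox4 to Cox8 and Atp5 genes and the mitochondrial mt-Nd, mt-Co, mt-Atp and mt-Cytb genes. The symbols matched 95 of the 15907 genes listed, of which 85 are nuclear and 10 mitochondrial. A mean of at least 1 RPM (read per 1000000 reads of the library) in both deposited tables was reached by 90 of them, 81 nuclear and 9 mitochondrial. Each table on its own held 82 nuclear and 9 mitochondrial members past that level. Atp5g2 passed only in the first table and Cox6a2 only in the second, while Ndufa4l2, Cox6b2 and mt-Atp6 passed in neither. mt-Co2, mt-Co3 and mt-Atp8 were not analysed here. The nuclear names fall to complex I (40), complex II (4), complex III (8), complex IV (15) and complex V (18), and the mitochondrial names to complex I (7), III (1), IV (1) and V (1). The annotation gives 4 of the nuclear names (Cox6c2, Ndufs6b, Ndufa11b and Ndufb4c) as processed pseudogenes, and these stay in the nuclear counts.

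The study measured liver RNA around the day with QuantSeq, a 3′ end method that reads mostly the last stretch of a polyadenylated transcript, in 282 libraries from male C57BL/6J mice kept singly in a 12 h light and 12 h dark cycle. In the first table, 13 arms were each sampled at zeitgeber times (hours after lights on) 2, 6, 10, 14, 18 and 22 with 3 libraries a time. In the second, 3 arms given tunicamycin, an inhibitor of N-linked glycosylation that causes stress of the endoplasmic reticulum, were sampled at times 4, 10, 16 and 22 with 4 libraries a time. The labels name the replicates as biological, and p-values measure the spread between these libraries.

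Wild-type mice without injection were fed at night only, ad libitum, or arrhythmically. Whole-body Bmal1 knockout mice, which lack a core activator of the circadian clock, and wild-type mice were all night-fed and received no injection, vehicle, or rapamycin, an inhibitor of the mTORC1 kinase complex. Night-fed mice with Albumin-Cre, a recombinase driven in hepatocytes, served as controls for liver-specific deletion of Tsc1, whose protein restrains mTORC1, and of Raptor (Rptor), a part of mTORC1. Arrhythmically fed wild-type mice received AZD8055, an inhibitor of the mTOR kinase itself, at dawn or at dusk. No arm was labelled as given the vehicle of AZD8055 alone. The tunicamycin arms were night-fed, arrhythmically fed, and arrhythmically fed with AZD8055 at dusk, all wild-type. The animals' age was not given in the sources used here.

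Oxidative phosphorylation passes electrons from NADH and succinate through complexes I to IV to oxygen, and complex V (ATP synthase) uses the proton gradient this builds to make ATP. Complexes I, III, IV and V mix subunits made in the cytosol from nuclear genes with subunits made inside the mitochondrion from its own DNA, whereas complex II is all nuclear. Liver is rich in mitochondria, and its mitochondrial transcripts come from long shared precursors that are then cut into single RNAs.

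The total of reads ran from 0.706 to 14.3 M (M, 1000000 reads) a library in the first table (median 8.51) and from 4.85 to 10.1 M in the second (median 7.71). The hepatocyte markers Alb, Apoa1, Ttr, Serpina1a, Cps1 and Ass1 summed to arm medians between 31067 and 78880 RPM. Tsc1 was lower in its knockout (3.72 to 11.2 RPM, median 7.57) than in Albumin-Cre mice (9.33 to 22.6, median 14.9), and Rptor was lower in its knockout (2.68 to 9.50, median 4.52) than in Albumin-Cre mice (6.73 to 11.6, median 8.54). Both pairs of ranges overlapped. Arntl, the Bmal1 gene, had a median of 11.9 RPM in wild-type and 9.97 RPM in knockout mice without injection; a 3′ tag outside the deleted part checks nothing, and the deleted part was not given. A group of 6 libraries stood apart: 3 under 3 M reads, a pair of ad libitum libraries at times 10 and 14 whose clock genes resembled each other's time, and an Albumin-Cre library at time 10. Counts that moved by over 1.5 times without them are named below.

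In most arms, libraries that carried the same replicate number deviated together. Over the members, the median correlation of their residuals was 0.34 within a number and -0.18 between numbers in vehicle-treated Bmal1 knockout mice, and 0.49 and -0.23 in night-fed wild-type mice. In the former arm, the 6 libraries of replicate 1 held 247 to 363 RPM of Cox7a2l against 171 to 252 in the other 12, and 1001 to 1230 RPM of mt-Nd5 against 1497 to 2569. In Albumin-Cre livers the median correlations within and between numbers were -0.029 and 0.032, and in undosed arrhythmically fed livers 0.091 and -0.032. Where libraries deviate together, the p-values over libraries may be too small. For each comparison of daily means, the count of members called is given beside the count after averaging over times the libraries that share a number, which leaves 3 values an arm (4 with tunicamycin). This choice was made after the data were seen. Counts by complex, of rhythms and of other gene lists were made over libraries only.

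The upstream stretches of 4 nuclear members named in the results are shown here as examples. They are from RefSeq on GRCm38.p6, 5′ to 3′ on the strand of the gene (minus for all 4). Each ends at the base before the annotated start. Capitals mark matches on either strand to NRF1 (GCGCA, any base, then GCGC), the ETS core (CCGGAAG), the ERR core (AAGGTCA), the YY1 core (AAGATGGC) or the E-box (CACGTG). Cox8a was among the nuclear members that differed most between feeding schedules, Atp5g3 and Cox6a1 hold matches to the ERR core and NRF1, and Uqcr11 was higher after loss of Raptor.
Cox8a, chr19:7217617-7217866, none of the 5 motifs: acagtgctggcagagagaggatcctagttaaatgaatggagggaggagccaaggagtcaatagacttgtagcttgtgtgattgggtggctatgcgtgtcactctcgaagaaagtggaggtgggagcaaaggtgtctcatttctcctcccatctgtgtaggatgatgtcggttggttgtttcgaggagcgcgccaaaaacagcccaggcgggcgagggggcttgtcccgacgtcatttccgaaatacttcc
Atp5g3, chr2:73911327-73911576, E-box and ERR core: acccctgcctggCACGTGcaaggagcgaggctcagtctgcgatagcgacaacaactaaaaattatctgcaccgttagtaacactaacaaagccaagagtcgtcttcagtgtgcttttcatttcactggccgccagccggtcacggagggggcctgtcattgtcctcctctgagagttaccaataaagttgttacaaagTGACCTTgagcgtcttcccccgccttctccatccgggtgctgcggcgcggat
Uqcr11, chr10:80406831-80407071, ETS core: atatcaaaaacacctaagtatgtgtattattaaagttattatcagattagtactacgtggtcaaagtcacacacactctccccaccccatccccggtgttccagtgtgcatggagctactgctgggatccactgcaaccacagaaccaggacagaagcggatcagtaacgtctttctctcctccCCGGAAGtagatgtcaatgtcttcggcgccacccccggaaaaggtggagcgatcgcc
Cox6a1, chr5:115348982-115349208, NRF1 at a pair of places: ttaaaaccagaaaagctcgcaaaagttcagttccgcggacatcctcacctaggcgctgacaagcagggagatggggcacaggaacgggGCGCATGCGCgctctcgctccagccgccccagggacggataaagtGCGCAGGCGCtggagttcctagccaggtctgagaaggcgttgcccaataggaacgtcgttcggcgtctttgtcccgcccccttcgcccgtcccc

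A 300-base promoter was found for 65 of the 82 nuclear members. NRF1, a factor long tied to respiratory genes, had a match in 17 of them (26.2%) against 5.19% of 27025 genes with such a promoter. These 27025 genes were not limited to those read in liver. The ETS core matched in 17 (26.2%) against 9.93%. The YY1 core matched in 10 (15.4% against 3.19%) and the ERR core, the site of estrogen-related receptors, in 8 (12.3% against 5.38%). The E-box bound by Bmal1 and its partner Clock matched in 6 (9.23%) against 8.09% of all genes with a promoter. A match describes letters and was not tested for binding.

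Summed over the members, nuclear transcripts took 1.24 to 2.58% of a library's reads and mitochondrial ones 1.59 to 17.5%. Night-fed wild-type livers without injection held the most nuclear subunit RNA, 19672 to 27624 RPM (median 23102). Ad libitum livers held 14171 to 20066 RPM (median 17241) and arrhythmically fed livers 16391 to 21065 RPM (median 19105). The night-fed range met the other ranges only at its lower end, while those overlapped each other over most of their length. The other night-fed arms without a deletion were lower than the first, with medians of 20732 RPM after vehicle and 18888 RPM in Albumin-Cre mice. For the mitochondrial mRNAs the order was different, since Bmal1 knockout livers held the least. Without injection they had 14350 to 91224 RPM (median 62166) against 105747 to 183104 RPM (median 126554) in the matching wild-type livers, with no overlap. The lowest of these libraries, at time 6, was also among the shallowest at 2.81 M reads. In the plot of the summed levels, the wild-type arms of the first table have mitochondrial medians between 106120 and 148413 RPM.

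**Figure D1:**
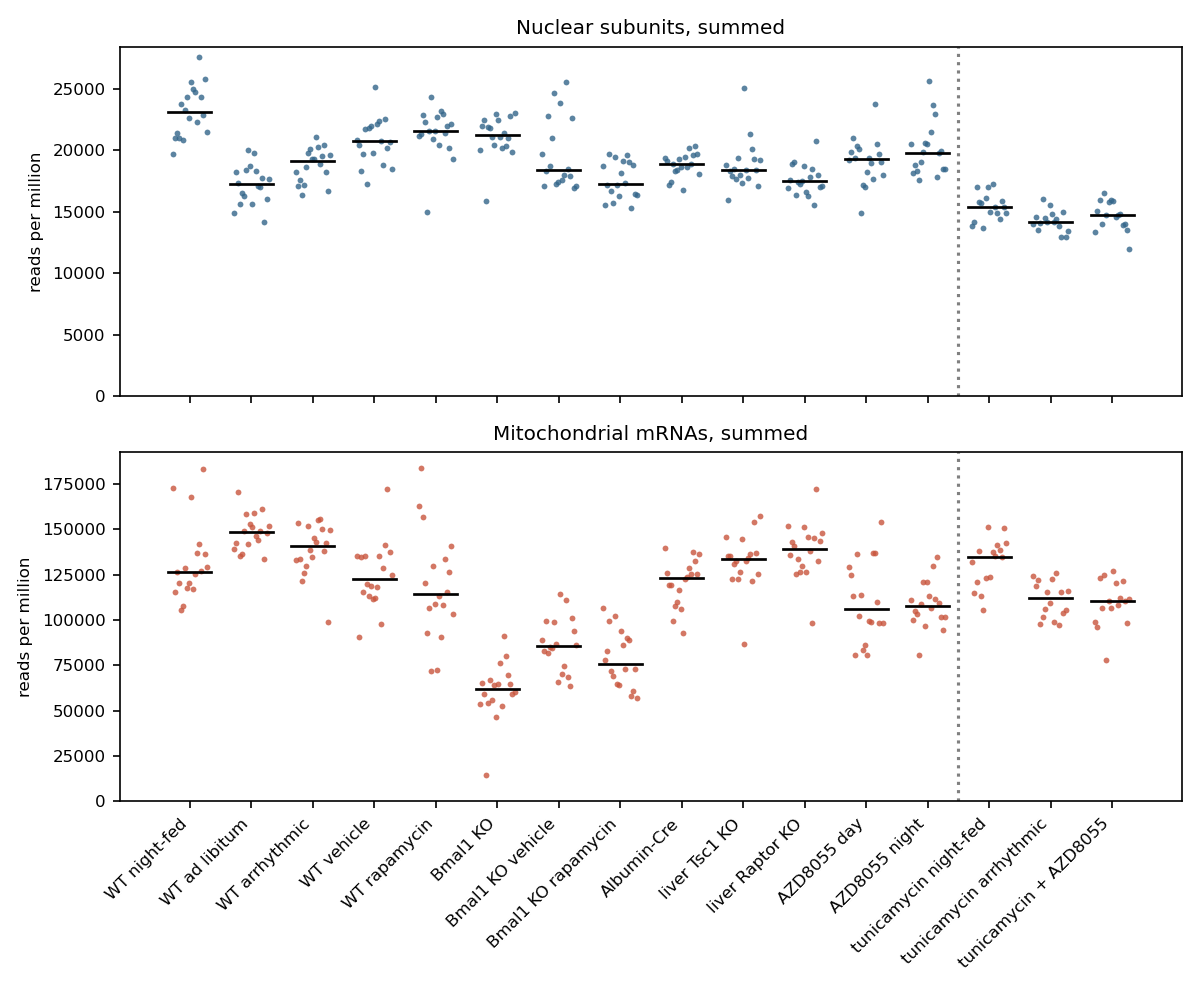
Summed level of the nuclear members (top) and of the mitochondrial mRNAs (bottom) in RPM; each point is a library, bars are arm medians, and the dotted line divides the 2 tables, whose levels were not compared. Uninjected Bmal1 knockout livers have a mitochondrial median of 62166 RPM and the night-fed wild-type livers a nuclear median of 23102 RPM.

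Most nuclear subunits differed between night feeding and the other schedules, and nearly all in the same direction. Averaged over the day, 68 of 82 nuclear members fell and 4 rose in ad libitum against night-fed livers, beside 24.5% and 28.5% of all 12413 genes that fell and rose. The median difference of the nuclear members was -0.39 on the log2 scale. Over values averaged by replicate number, 56 fell and 1 rose, beside 17.5% and 20.3% of all genes. In arrhythmically fed against night-fed livers 58 fell and 5 rose, beside 20.1% and 23.9% of all genes, with a median of -0.23; averaged by number, 35 fell and 1 rose, beside 11.8% and 14.1%. Both comparisons share the night-fed livers. Falls came from each complex: in ad libitum livers 31 of 39 members of complex I, 2 of 4 of complex II, 6 of 8 of complex III, 13 of 13 of complex IV and 16 of 18 of complex V.

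Cox8a encodes a small subunit of complex IV (chromosome 19, 7215153-7217616, minus strand, GRCm38). It was at 364 to 773 RPM (median 592) in night-fed, 166 to 327 RPM (median 226) in ad libitum and 187 to 355 RPM (median 279) in arrhythmically fed livers. No library of the other schedules reached the night-fed range. The log2 difference was -1.23 ± 0.07 (SE, adjusted p = 1.4e-17, limma) in ad libitum and -1.02 ± 0.07 (adjusted p = 1.9e-14) in arrhythmically fed livers; averaged by number, the adjusted p was 1.1e-05 and 1.4e-04. Other night-fed arms had less Cox8a than the uninjected wild-type mice. The median was 326 RPM after vehicle and 307 RPM in Albumin-Cre mice, both within the arrhythmic range. Ndufa4, named for complex I and since placed with complex IV, showed the same order of medians. It was at 251 to 683 RPM (median 372) in night-fed, 127 to 210 RPM (median 162) in ad libitum and 171 to 235 RPM (median 195) in arrhythmically fed livers, without overlap. Its differences were -1.20 ± 0.07 and -0.95 ± 0.07, and its median was 216 RPM in Albumin-Cre mice. Whether the night-fed arm was prepared apart from the others was not given in the sources used here, and its part in these falls was not tested. Night-fed libraries were shallower, with a median of 5.76 M reads against 9.61 M for ad libitum and 8.74 M for arrhythmic feeding. The RNA quality list (mt-Rnr1, mt-Rnr2, Malat1 and Neat1) had median sums of 28842, 55826 and 52002 RPM in the same order, with overlapping ranges. The part of depth and of this list was not tested.

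Complex V followed. Atp5d, the delta subunit of the central stalk, was at 235 to 365 RPM (median 268) in night-fed and 134 to 175 RPM (median 158) in ad libitum livers, without overlap, a difference of -0.83 ± 0.05 (adjusted p = 7.8e-17). Of the genes for the c subunit, whose ring turns in the membrane, Atp5g3 fell from 1940 to 3578 RPM (median 2766) to 1267 to 2129 RPM (median 1699), by 0.67 ± 0.05, and the ranges overlapped. Atp5g2 fell from a median of 33.5 RPM to one of 11.1 RPM, by 1.89, while Atp5g1 fell by 0.29. The 3′ end of Atp5g2 is 62.2% shared with pseudogenes, and that of Atp5g1 27.2% with other genes. Within complex III, Uqcrfs1, the Rieske iron-sulfur protein, was at 341 to 831 RPM (median 484) in night-fed and 191 to 331 RPM (median 245) in ad libitum livers, without overlap.

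A few members went the other way. Uqcrc1, a core protein of complex III, rose from 56.7 to 108 RPM (median 77.1) in night-fed livers to 91.4 to 148 RPM (median 108) in ad libitum and 64.2 to 162 RPM (median 120) in arrhythmically fed livers, with overlap. The differences were 0.52 ± 0.09 (adjusted p = 3.2e-06) and 0.56 ± 0.09 (adjusted p = 1.5e-06), and averaged by number the adjusted p was 0.0080 and 0.0087. In complex II, the iron-sulfur subunit Sdhb rose by 0.23 ± 0.07 (adjusted p = 0.0028; 0.087 averaged by number), whereas the membrane anchor Sdhc fell by 0.60 ± 0.05 from 202 to 277 RPM (median 230) to 129 to 189 RPM (median 148), without overlap. Ndufs1 and Ndufa10, of complex I, rose by 0.18 and 0.13 in ad libitum livers (adjusted p = 0.11 and 0.23 averaged by number).

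Arrhythmic against ad libitum feeding gave smaller differences, with 20 nuclear members higher and 0 lower, beside 4.91% and 3.47% of all genes. At an unadjusted p under 0.05, 44 were higher and 0 lower, and edgeR called 21 and 0. The median was 0.13. Averaged by number, 2 were higher and 0 lower (18 and 0 unadjusted), beside 0.508% and 0.371% of all genes. Of the mitochondrial mRNAs 0 passed by either tool, with 0 higher and 2 lower at an unadjusted p under 0.05. Without replicate 1 or 3 of each group, 1 and 6 nuclear members were higher. Calls in either direction over all genes were then 175 and 352, against 1040 with all libraries. Atp5j, coupling factor 6 of the ATP synthase, was at 95.3 to 249 RPM (median 202) with arrhythmic and 92.7 to 193 RPM (median 134) with ad libitum feeding, a difference of 0.50 ± 0.09 (adjusted p = 6.0e-04; 0.037 averaged by number). Sdhc was higher by 0.27 ± 0.05 (adjusted p = 1.7e-04; 0.10 averaged by number).

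**Figure D2:**
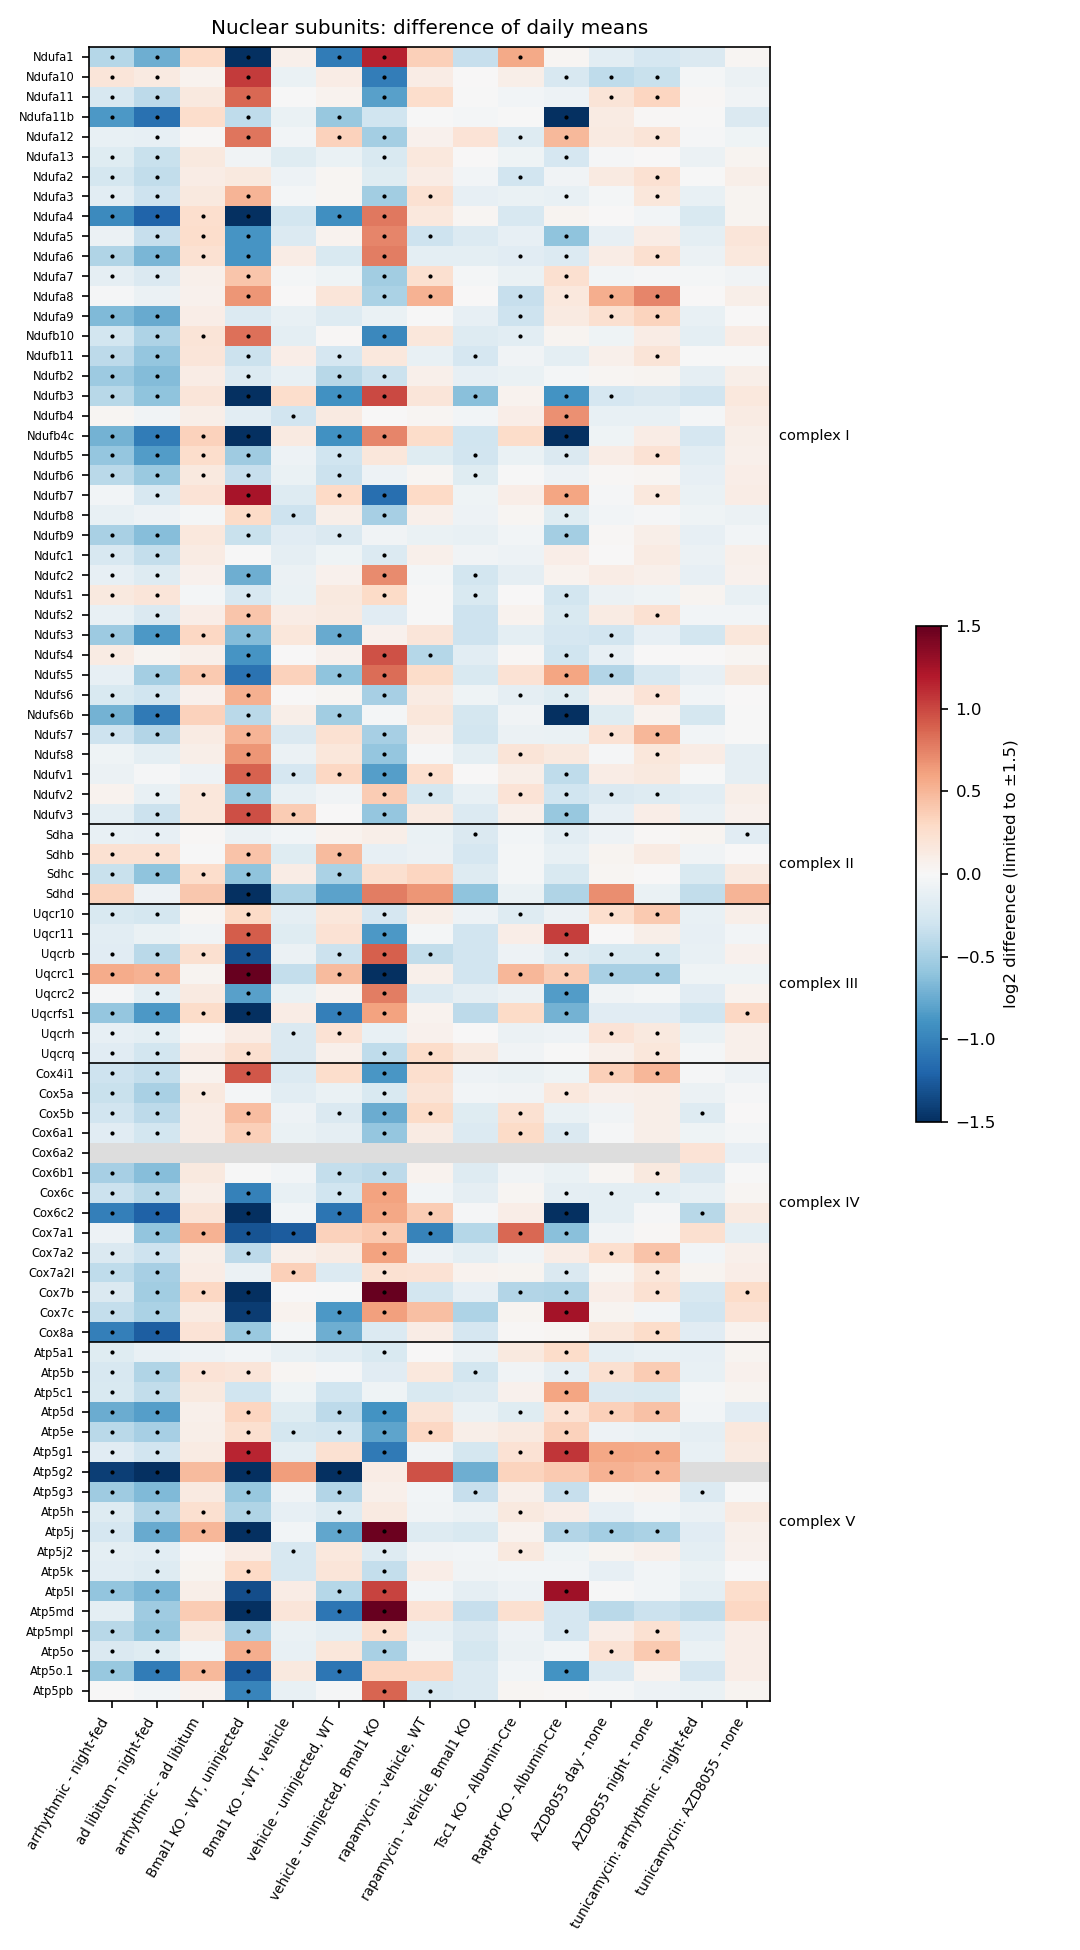
Log2 difference of daily means for each nuclear member (rows, by complex) in 15 comparisons (columns), with colour limited to ±1.5; dots mark an adjusted p under 0.05 over all genes tested, and grey cells were below the level filter. The columns for ad libitum and arrhythmic against night-fed feeding are mostly blue (68 and 58 of 82 fell), and those of the Bmal1 knockout without injection and of vehicle in that knockout hold both colours.

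The mitochondrial mRNAs did not move as a block with feeding. In ad libitum against night-fed livers 4 of 9 rose and 3 fell, beside 28.5% and 24.5% of all genes. With arrhythmic feeding 3 rose and 2 fell (3 and 4 at an unadjusted p under 0.05), beside 23.9% and 20.1%. The medians were -0.06 and -0.04. Averaged by number, 3 rose and 1 fell in ad libitum livers, beside 20.3% and 17.5% of all genes. In arrhythmically fed livers 1 rose and 1 fell, beside 14.1% and 11.8%. The counts with arrhythmic feeding were near these shares. mt-Cytb, the mitochondrial subunit of complex III, was at 23899 to 44446 RPM (median 32266) in night-fed and 18574 to 23766 RPM (median 21233) in ad libitum livers, without overlap (-0.60 ± 0.07, adjusted p = 6.0e-10; 0.0015 averaged by number). mt-Nd5, a membrane subunit of complex I, was at 1603 to 3632 RPM (median 1956) in night-fed and 2297 to 4516 RPM (median 3063) in ad libitum livers (0.59 ± 0.09; adjusted p = 0.0060 averaged by number), with overlap. mt-Nd4 rose by 0.50. The 12S and 16S ribosomal RNAs of the mitochondrion (mt-Rnr1 and mt-Rnr2), which carry no message, rose by 1.40 and 1.01. The median mitochondrial minus the median nuclear difference was 0.34 in ad libitum and 0.19 in arrhythmically fed livers, and leaving out a replicate number gave 0.19 to 0.47 and 0.12 to 0.36.

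Loss of Bmal1 lowered every one of the 9 mitochondrial mRNAs in uninjected livers, by a median of 1.57 on the log2 scale, beside 37.4% of all genes lower; all 9 were also lower averaged by number (28.4% of all genes) and without the 6 libraries that stood apart. mt-Nd4l, a small complex I subunit (M:9877-10173), was at 143 to 260 RPM (median 207) in the knockout and 747 to 2242 RPM (median 919) in wild-type livers. The ranges did not overlap, and the difference was -2.30 ± 0.10 (adjusted p = 2.4e-34; 1.5e-08 averaged by number). mt-Cytb was at 1720 to 13498 RPM (median 10563) against 23899 to 44446 RPM (median 32266), and mt-Nd1 at 2943 to 7178 RPM (median 6028) against 13400 to 19798 RPM (median 15133). Neither overlapped. The smallest difference was that of mt-Nd2, -0.65. mt-Nd4l shares 98.0% of its 3′ end with a nuclear pseudogene, but mt-Nd1 and mt-Cytb share none. The end of mt-Nd4l also overlaps the start of mt-Nd4 (M:10167-11544). The mitochondrial ribosomal RNAs were lower by 1.28 and 1.35. In bulk tissue, fewer cells of a type and less RNA per cell cannot be told apart. Markers of Kupffer cells (2 of 10 higher, 6 lower; summed range 126 to 443 RPM in the knockout and 134 to 437 RPM in wild-type), endothelial cells (1 of 6 higher, 4 lower), stellate cells (1 of 6 higher, 4 lower) and leukocytes (0 of 3 higher, 2 lower) also moved. The hepatocyte markers summed to 36982 to 48750 RPM in the knockout and 61035 to 80598 RPM in wild-type, without overlap, with 3 of 6 higher and 2 lower, Alb among the lower ones (-1.92). The tested cholangiocyte markers went 1 up and 1 down, and their list summed to medians of 59.7 and 22.3 RPM. The RNA quality list (mt-Rnr1, mt-Rnr2, Malat1 and Neat1) summed to 6616 to 21687 RPM against 17533 to 56377 RPM. The part of all these in the result was not tested.

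The nuclear members split. In uninjected knockout livers 29 of 82 were higher and 40 lower, beside 34.3% and 37.4% of all genes, and averaged by number 18 and 34 beside 28.1% and 28.4%. The count of higher members was near the share over all genes. Higher members included Ndufa10 (complex I), at 357 to 585 RPM (median 444) against 181 to 274 RPM (median 220), without overlap, a difference of 1.04 ± 0.08 (adjusted p = 3.0e-20). Atp5g1 (11:96068852-96075670, minus strand) was at 195 to 306 RPM (median 247) against 87.7 to 147 RPM (median 106), a difference of 1.14 ± 0.10, and Uqcrc1 at 221 to 824 RPM (median 279) against 56.7 to 108 RPM (median 77.1), a difference of 1.97 ± 0.17. Neither overlapped. Lower members included Ndufa4, at 69.7 to 135 RPM (median 87.2) against 251 to 683 RPM (median 372), a difference of -1.98 ± 0.13 (adjusted p = 8.9e-24), and the complex IV subunit Cox7b, at 66.6 to 168 RPM (median 126) against 254 to 469 RPM (median 362), a difference of -1.53 ± 0.12. Both lay wholly below the wild-type range. Higher members had a median GC content of 51.7% in their last 200 transcript bases and lower members 42.1%, against 47.2% over all nuclear members; the part of base composition was not tested.

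After vehicle injection the knockout differed far less from wild-type. Of the mitochondrial mRNAs 7 fell and 0 rose (8 and 0 by edgeR and at an unadjusted p under 0.05), with a median of -0.51, beside 11.8% and 9.95% of all genes; averaged by number 4 fell, beside 3.77%. mt-Nd1 was at 5831 to 9269 RPM (median 7423) against 9921 to 17953 RPM (median 11997), without overlap (-0.77 ± 0.08, adjusted p = 2.6e-12; 0.0017 averaged by number). mt-Nd4l was at 331 to 520 RPM (median 375) against 489 to 1142 RPM (median 700). The hepatocyte markers summed to 25202 to 56675 RPM against 59878 to 100219 RPM, again without overlap and with 0 of 6 higher and 2 lower, and their part was not tested. mt-Nd6 (0.43, adjusted p = 0.19) and mt-Cytb (-0.32, adjusted p = 0.078) did not pass. Among nuclear members 2 rose and 7 fell, and averaged by number only Cox7a1 fell and 0 rose (1 at an unadjusted p under 0.05), both beneath the shares of all genes. Without replicate 1, whose vehicle-treated knockout libraries stood apart, 33 nuclear members fell and 0 rose (2 rose and 1 fell without replicate 2). The calls over all 12413 genes also moved, to 3869 without replicate 1 and 1670 without replicate 2, from 2694. Cox7a1, the muscle form of a complex IV subunit (7:30184144-30186078, plus strand), was at 0.916 to 2.42 RPM (median 1.38) against 2.19 to 6.15 RPM (median 4.04), with overlap, a difference of -1.25 ± 0.16 (adjusted p = 6.1e-10; 7.3e-05 averaged by number). Ndufa10 (-0.10, adjusted p = 0.39), Ndufa4 (-0.27, adjusted p = 0.13) and Atp5g1 (-0.15, adjusted p = 0.29) did not pass here. The difference between the uninjected and the vehicle genotype effect passed for 65 nuclear and 8 mitochondrial members, beside 57.1% of all genes, and averaged by number for 36 and 6, beside 32.8%.

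Members also differed between vehicle-treated and uninjected livers of the knockout. Against uninjected knockout livers 8 of 9 mitochondrial mRNAs rose and 0 fell, also by edgeR and at an unadjusted p under 0.05 (median 0.84), and 26 nuclear members rose, near the share over all genes, and 33 fell, beside 31.3% and 29.1%. Averaged by number, 7 mitochondrial mRNAs rose, and 21 nuclear members rose and 22 fell, beside 19.1% and 20.6%. Cox7b rose from 66.6 to 168 RPM (median 126) to 285 to 418 RPM (median 361), by 1.52 ± 0.12, and Ndufa10 fell from 357 to 585 RPM (median 444) to 185 to 255 RPM (median 216). Neither overlapped. Other lists moved with this change. The RNA quality list rose from a median sum of 11671 to 47669 RPM (3 of 4 higher), and endothelial (5 of 6 higher), stellate (4 of 6), leukocyte (3 of 3) and Kupffer cell markers (5 of 10 higher, 2 lower) also moved. Hepatocyte markers were lower for 3 of 6, with median sums of 41362 and 35869 RPM, and the median erythroid sum went from 2444 to 1327 RPM. Their part was not tested. In vehicle-treated against uninjected wild-type livers, 31 nuclear members were lower and 6 higher. Of the mitochondrial mRNAs 4 of 9 were lower, beside 11.9% and 15.4% of all genes lower and higher. Without replicate 2 the nuclear count was 12 lower and 0 higher, and 980 of all genes were called, against 3387 with all libraries. Averaged by number, 4 nuclear members fell (beside 1.04%), and 0 of the mitochondrial ones, of which 3 were lower at an unadjusted p under 0.05. The nuclear ones included Ndufa4, from a median of 372 RPM to 117 to 295 RPM (median 214), with overlap (-0.92 ± 0.13; adjusted p = 0.024 averaged by number), and Cox8a (-0.73 ± 0.12; 0.042). Whether injected and uninjected mice were prepared together was not given, so injection and preparation cannot be told apart.

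**Figure D3:**
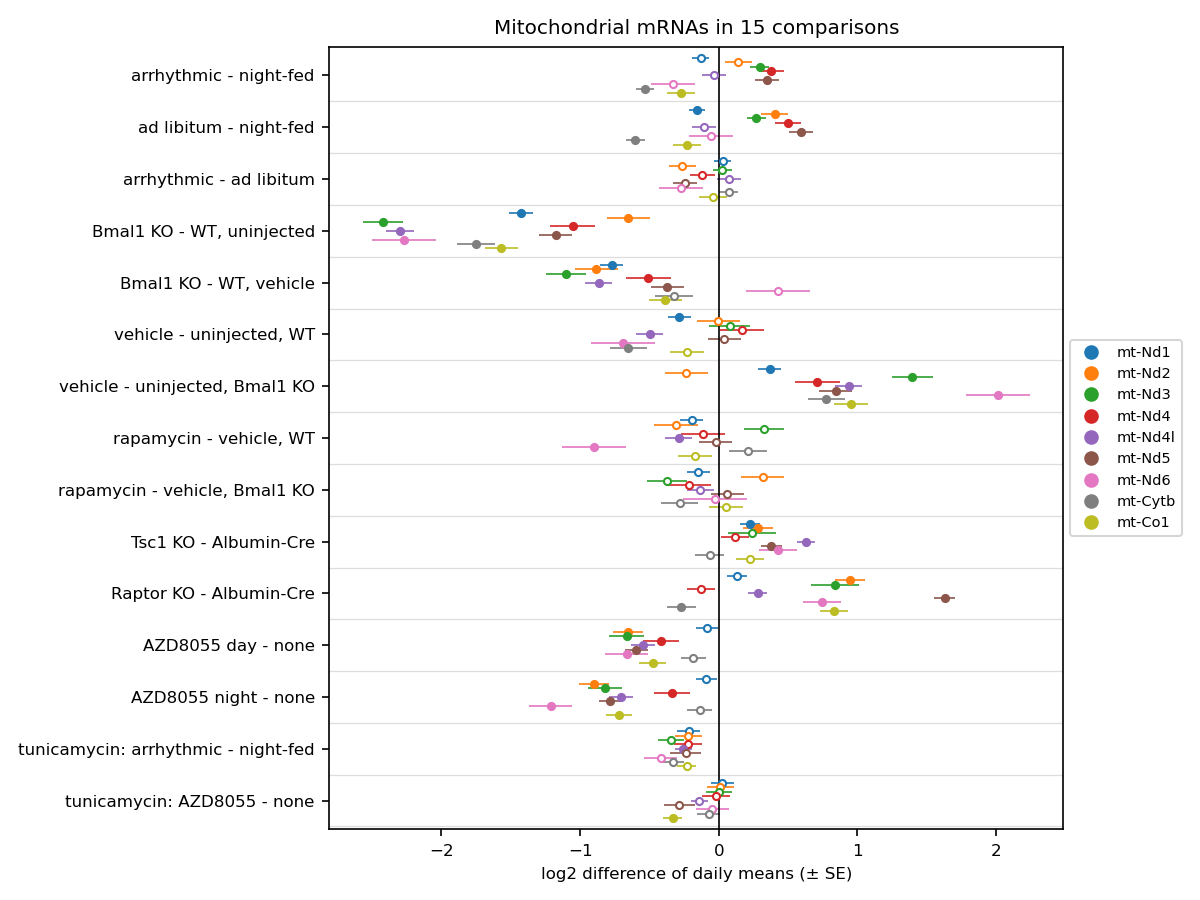
Log2 difference of daily means (x axis, ± SE) of the 9 mitochondrial mRNAs in 15 comparisons (rows); filled points passed an adjusted p under 0.05 over all genes tested, open points did not. All 9 points are left of 0 in the uninjected Bmal1 knockout, 7 are filled and left of 0 for AZD8055 at dusk, and mt-Nd5 is the farthest to the right (1.63) after loss of Raptor.

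In wild-type livers given rapamycin rather than vehicle, 8 nuclear members rose and 6 fell, near the 9.8% and 8.72% of all genes, and 2 mitochondrial mRNAs fell. Averaged by number, Cox7a1 alone fell (beside 0.653% of all genes) and 0 rose, with 4 nuclear members lower and 3 higher at an unadjusted p under 0.05. Cox7a1 was at 0 to 3.55 RPM (median 1.90) after rapamycin and 2.19 to 6.15 RPM (median 4.04) after vehicle, with overlap, a difference of -1.0 ± 0.16 (adjusted p = 2.3e-06; 0.0071 averaged by number). Ndufa8, an accessory subunit of complex I (2:36036326-36049406, minus strand), was at 142 to 251 RPM (median 206) against 113 to 176 RPM (median 135), with overlap, a difference of 0.52 ± 0.13 (adjusted p = 0.0018; 0.15 averaged by number). mt-Nd6 was lower by 0.90 (adjusted p = 0.0034; 0.21 averaged by number); it lies on the other strand from mt-Nd5 and overlaps its end, and whether counting used the strand was not given. In Bmal1 knockout livers 9 nuclear members fell and 0 rose, beside 5.57% and 6.32% of all genes (13 and 0 by edgeR, 26 and 0 at an unadjusted p under 0.05). Of the mitochondrial mRNAs 0 passed by limma or edgeR, with 1 higher and 2 lower at an unadjusted p under 0.05. Those 9 included Ndufc2 (-0.28, adjusted p = 0.0058), Atp5b, the catalytic beta subunit (-0.28), and Atp5g3 (-0.34); averaged by number, 0 passed and 4 were lower at an unadjusted p under 0.05. Without the 6 libraries that stood apart the count was 17, and without replicate 1, 2 or 3 of each group it was 1, 3 and 1. In the same order, 2006, 591, 924 and 786 of all genes were called, against 1476 with all libraries. The rapamycin effect differed between genotypes for 10 nuclear and 2 mitochondrial members over libraries, beside 14.3% of all genes, and for 0 averaged by number, where 1 nuclear member was higher and 6 lower at an unadjusted p under 0.05.

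Loss of Raptor in the liver raised 6 of 9 mitochondrial mRNAs and lowered 1, beside 19.6% and 22.7% of all 12267 genes; averaged by number 6 rose and 0 fell, adjusted or not, beside 13.5% and 16.5%. mt-Nd5 (M:11742-13565, plus strand) was at 5617 to 10281 RPM (median 7107) in the knockout and 1793 to 2996 RPM (median 2466) in Albumin-Cre livers. The ranges were far apart, and the difference was 1.63 ± 0.08 (adjusted p = 1.2e-22; 5.8e-08 averaged by number). mt-Nd2 was at 28329 to 52087 RPM (median 40494) against 16152 to 31082 RPM (median 20343), a difference of 0.94 ± 0.11. mt-Co1, the catalytic subunit of complex IV (M:5328-6872), was at 2167 to 5212 RPM (median 3729) against 1599 to 2515 RPM (median 2056), a difference of 0.83 ± 0.10. Both overlapped. mt-Nd1 (0.13) and mt-Nd4 (-0.13) did not pass, and mt-Cytb fell by 0.27 (adjusted p = 0.035). Of the 6 that rose, mt-Nd5 and mt-Nd6 share no 3′ end with another gene, whereas mt-Nd2 (53.0% shared), mt-Co1 (100% shared), mt-Nd3 and mt-Nd4l (98.0% shared) match nuclear pseudogenes there. None of the other unshared mRNAs, mt-Nd1, mt-Nd4 and mt-Cytb, rose. The mitochondrial 12S and 16S RNAs were higher by 2.21 and 1.60, and the RNA quality list summed to 111469 to 229302 RPM against 36539 to 64843 RPM. Kupffer cell markers were higher for 4 of 10 and lower for 0. The part of these in the result was not tested.

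Nuclear members went both ways after loss of Raptor. Over libraries 16 of 82 were higher and 34 lower, beside 19.6% and 22.7% of all genes. Averaged by number 12 were higher and 22 lower, beside 13.5% and 16.5%. The lower ones include the processed pseudogenes Cox6c2, Ndufs6b and Ndufa11b, described below. The count of higher members was near the share over all genes. Atp5g1 was at 180 to 304 RPM (median 210) against 86.7 to 123 RPM (median 104), a difference of 1.07 ± 0.06 (adjusted p = 1.5e-20; 2.0e-07 averaged by number). Uqcr11, a small subunit of complex III (10:80402997-80406830, minus strand), was at 203 to 295 RPM (median 256) against 97.9 to 186 RPM (median 122), a difference of 1.04 ± 0.06 (adjusted p = 1.8e-18). Neither overlapped. Uqcrc2, the other core protein of complex III, was at 157 to 222 RPM (median 185) against 216 to 376 RPM (median 348), a difference of -0.84 ± 0.05. Ndufb9, of complex I, was at 187 to 262 RPM (median 220) against 266 to 512 RPM (median 313), without overlap.

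Members with near copies in the genome need care in the Raptor arm. There, 197 genes over the series had values that were not whole multiples of a read and were left out. Of the members that are annotated as processed pseudogenes, Cox6c2 was at 0 to 1.51 RPM against 17.2 to 50.1 RPM in Albumin-Cre livers, Ndufs6b at 0 to 0.419 RPM against 2.19 to 6.07 RPM, and Ndufa11b at 0 to 0.404 RPM against 1.08 to 2.59 RPM. Ndufb4c, whose whole 3′ end is shared, was at 7.31 to 20.2 RPM against 16.5 to 75.3 RPM, while its parent Ndufb4 was at 108 to 165 RPM against 65.2 to 98.3 RPM. Cox7c (78.7% of its 3′ end shared) and Atp5l (40.2% shared) were among the higher members, with differences of 1.25 and 1.27. Atp5g1 shares 27.2% and Uqcr11 none. The members that share a 3′ end were then left out, along with Atp5md, Atp5o.1 and Atp5pb, whose ends could not be checked. Of the 57 calls over libraries 31 remained, 8 nuclear ones higher and 20 lower, and 2 mitochondrial ones higher and 1 lower. Deletion and any difference in how this arm's reads were counted cannot be told apart.

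Loss of Tsc1 gave smaller differences. Of the mitochondrial mRNAs 5 rose and 0 fell (5 and 0 by edgeR, 6 and 0 at an unadjusted p under 0.05; median 0.24), beside 18.6% and 18% of all genes, and 2 rose averaged by number, beside 12.1%. mt-Nd4l was at 903 to 1411 RPM (median 1097) against 542 to 889 RPM (median 741) in Albumin-Cre livers, without overlap, a difference of 0.63 ± 0.07 (adjusted p = 2.6e-10; 1.1e-04 averaged by number). mt-Nd5 was at 2322 to 3796 RPM (median 3089), a difference of 0.38 ± 0.08 (adjusted p = 8.6e-05; 0.017 averaged by number). The 3′ end of mt-Nd4l is 98.0% shared with a nuclear pseudogene, and mt-Nd5 shares none. Among nuclear members 10 rose and 10 fell, and averaged by number 5 and 4, smaller shares than over all genes. Cox7a1 was at 3.09 to 9.56 RPM (median 6.15) against 1.93 to 4.14 RPM (median 3.33), with overlap, a difference of 0.86 ± 0.15 (adjusted p = 9.8e-06; 0.0021 averaged by number). Cox6a1, the liver form of a complex IV subunit, was higher by 0.29 ± 0.06 and Uqcrc1 by 0.50 ± 0.10. Cox7b was at 205 to 359 RPM (median 246) against 263 to 394 RPM (median 340), a difference of -0.44 ± 0.07, and Ndufa8 was lower by 0.35 ± 0.06.

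The Tsc1 and Raptor effects, which share the Albumin-Cre livers, differed for 51 nuclear and 7 mitochondrial members, beside 58% of all genes, and averaged by number for 42 and 5, beside 47.9%. The Tsc1 minus the Raptor effect was -1.25 ± 0.08 for mt-Nd5, 0.35 ± 0.07 for mt-Nd4l, -0.85 ± 0.06 for Atp5g1, -0.93 ± 0.06 for Uqcr11 and 1.49 ± 0.15 for Cox7a1. Cox7a1 was lower by 0.63 after loss of Raptor.

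**Figure D4:**
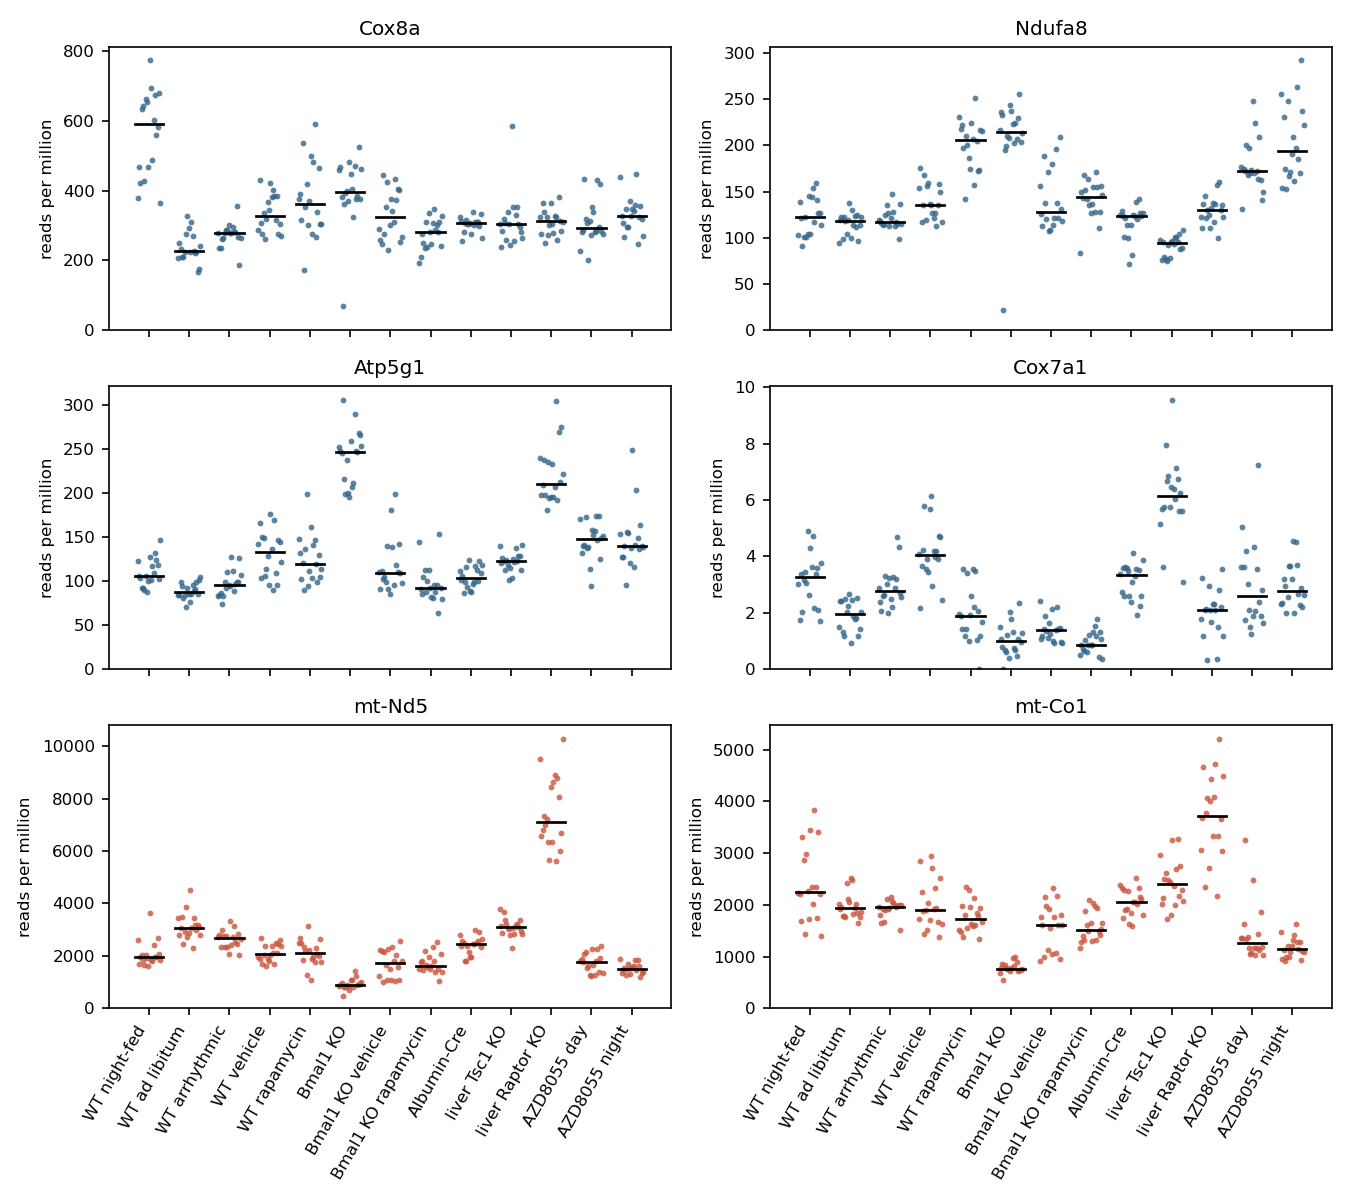
Level in RPM (y axis, linear) of 4 nuclear and 2 mitochondrial members in the 13 arms of the first table; points are libraries and bars arm medians. Cox8a stands highest in uninjected night-fed wild-type livers (median 592 RPM), Atp5g1 in uninjected Bmal1 and liver Raptor knockouts (247 and 210 RPM), Cox7a1 in the liver Tsc1 knockout (6.15 RPM) and mt-Nd5 in the liver Raptor knockout (7107 RPM).

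In arrhythmically fed livers, the same 7 mitochondrial mRNAs were lower after AZD8055 at dawn and at dusk than without dosing. No vehicle arm was part of these comparisons, so the drug and its dosing cannot be told apart. After dawn dosing 7 of 9 were lower and 0 higher (8 and 0 at an unadjusted p under 0.05), beside 20% and 21% of all genes, with a median of -0.55. After dusk dosing 7 were lower and 0 higher, as without adjustment and, at both times, by edgeR, beside 23.8% and 27%, with a median of -0.72. Averaged by number 6 fell in each, beside 10.1% and 14.9%. mt-Nd5 was at 2035 to 3330 RPM (median 2681) without the drug, 1225 to 2374 RPM (median 1777) after dawn dosing and 1185 to 1890 RPM (median 1509) after dusk dosing. Only the dusk range was clear of the undosed one. The differences were -0.59 ± 0.08 (adjusted p = 1.4e-07; 0.010 averaged by number) and -0.78 ± 0.08 (adjusted p = 2.1e-10; 0.0018 averaged by number). mt-Co1 was at 1511 to 2144 RPM (median 1957) without the drug, 1024 to 3249 RPM (median 1263) after dawn dosing and 926 to 1631 RPM (median 1141) after dusk dosing. mt-Nd4l fell by 0.55 and 0.71, mt-Nd2 by 0.66 and 0.90, and mt-Nd3 by 0.66 and 0.82. Of these, mt-Nd4l and mt-Nd3 (98.0%), mt-Nd2 (53.0%) and mt-Co1 (100%) share their 3′ ends with nuclear pseudogenes, and mt-Nd5 shares none. mt-Nd1 (-0.08 and -0.09) and mt-Cytb (-0.19 and -0.14) did not pass at either time. The mitochondrial 12S RNA fell by 1.37 and 2.10. Both dosing times share the undosed livers, and the difference between them passed for mt-Nd6 (-0.55, adjusted p = 0.033) alone of the mitochondrial mRNAs, beside 4.01% of all genes, and for 0 members averaged by number, where 2 nuclear members were higher and 1 mitochondrial lower at an unadjusted p under 0.05.

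Nuclear members rose more often than they fell after dusk dosing, with 29 higher and 6 lower (median 0.08), beside 27% and 23.8% of all genes. Averaged by number 13 were higher and 2 lower, beside 16.7% and 14.9%. The higher count averaged by number was near the share over all genes. After dawn dosing 13 were higher and 10 lower (median 0.01), beside 21% and 20% of all genes. Averaged by number 3 were higher and 1 lower, beside 10.3% and 10.1%. All these are smaller shares than over all genes. Leaving out replicate 2 gave 11 higher and 18 lower, and replicate 3 gave 6 and 3. Of all genes 4379 and 3292 were then called, against 5088 with all libraries. Ndufa8 was at 98.2 to 147 RPM (median 118) without the drug, 131 to 248 RPM (median 172) after dawn dosing and 153 to 292 RPM (median 194) after dusk dosing, the last without overlap. The differences were 0.55 ± 0.07 (adjusted p = 4.7e-08) and 0.74 ± 0.07 (adjusted p = 3.5e-11), with adjusted p of 0.0042 and 6.7e-04 averaged by number. Atp5g1 was at 74.4 to 128 RPM (median 95.7) without the drug and 95.3 to 249 RPM (median 140) after dusk dosing, with a difference of 0.57 at both dosing times (adjusted p of 0.0071 and 0.0048 averaged by number). Cox7a2, the common form of the subunit that Cox7a1 replaces in muscle, was at 355 to 543 RPM (median 458) without the drug and 500 to 853 RPM (median 581) after dusk dosing, a difference of 0.43. Ndufa10 fell from 198 to 284 RPM (median 253) to 142 to 253 RPM (median 183) after dawn dosing and 139 to 266 RPM (median 198) after dusk dosing, by 0.38 and 0.33. Kupffer cell markers were higher after dusk dosing (5 of 10 higher, 0 lower; summed 228 to 527 RPM against 217 to 378 RPM) and erythroid markers lower after dawn dosing (5 of 5). The RNA quality list summed to 7114 to 22709 RPM after dusk dosing against 37948 to 73877 RPM, without overlap. Their part in these results was not tested.

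With tunicamycin in all arms, few members differed. Arrhythmic against night-fed feeding lowered 3 nuclear members and 1 mitochondrial mRNA and raised 0, beside 0.31% and 0.245% of all 12261 genes. By edgeR 3 and 3 fell and 0 rose, and at an unadjusted p under 0.05, 31 and 9 were lower and 0 higher. Averaged by number 0 passed, beside 0.106% and 0.0652%, and 20 nuclear and 6 mitochondrial members were lower at an unadjusted p under 0.05. Atp5g3 was at 1005 to 1465 RPM (median 1204) against 1167 to 1536 RPM (median 1381), a difference of -0.20 (adjusted p = 0.042; 0.33 averaged by number). With AZD8055 at dusk 2 nuclear members were higher and 1 lower, and 1 mitochondrial mRNA was lower, beside 4.19% and 4.66% of all genes. mt-Co1 was at 1055 to 1591 RPM (median 1199) with AZD8055 and 1049 to 1906 RPM (median 1540) without, a difference of -0.33 ± 0.07 (adjusted p = 9.8e-04), and it was the only member past the threshold averaged by number (adjusted p = 0.037), beside 2.13% of all genes. Cox7b (0.27) and Uqcrfs1 (0.31) were higher and Sdha, the flavoprotein of complex II, was lower by 0.16, all with an adjusted p of 0.12 or more averaged by number. Whether tunicamycin altered the feeding effect was not tested, since the tables were scaled apart.

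Daily rhythms were tested in each arm as a 24 h cosine. In night-fed livers 11 of 82 nuclear members were rhythmic (10 by edgeR), beside 21.8% of all genes, and in ad libitum livers 11 (11 by edgeR), beside 16.5%. These counts depended on the replicate numbers: without 1 of them, 1 to 3 nuclear members were rhythmic in night-fed and 0 to 10 in ad libitum livers, and with a block for the number 25 (beside 32.1% of all genes) and 19 (beside 19.4%). In arrhythmically fed livers Ndufv2 alone was (beside 7.95%). Vehicle-treated wild-type livers had 2 (beside 14.9%), Albumin-Cre livers 1 (23.3%; 5 without its library that stood apart), Tsc1 knockout livers 1 (24.4%), and livers dosed with AZD8055 at dawn 3 (20.9%) and at dusk 5 (19.5%). Livers given AZD8055 and tunicamycin had 10 (21.2%), and 5 by edgeR. By limma and by edgeR 0 were rhythmic in 7 arms. At an unadjusted p under 0.05 these held 1 nuclear member after rapamycin (beside 16.9% of all genes at the same unadjusted threshold), 1 in the uninjected Bmal1 knockout (19.2%), 3 with vehicle (18.2%) and 5 with rapamycin (10.2%) in that knockout, 0 after loss of Raptor (30.1%), and 6 and 2 with tunicamycin under night (29.2%) and arrhythmic feeding (19.7%). After adjustment, the shares of all genes called in these arms were, in the same order, 5.12%, 5.61%, 5.49%, 0.274%, 17.5%, 15% and 7.52%. Over all libraries and with no block, 0 of 9 mitochondrial mRNAs were rhythmic in each of the 16 arms by either tool, with 0 to 2 an arm at an unadjusted p under 0.05. In ad libitum livers 1 was called without the libraries that stood apart (with 10 nuclear members), and with the block 1 was called in night-fed and 1 in vehicle-treated Bmal1 knockout livers. The amplitude was small: its median over nuclear members was 0.16 in night-fed and 0.10 in ad libitum livers on the log2 scale, against 0.22 and 0.16 over all genes.

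Cox7a2l, counted with complex IV by its name (17:83501918-83517330, minus strand), was rhythmic in 5 arms. In night-fed livers its 3 libraries held 140, 174 and 160 RPM at time 2 and 306, 302 and 240 RPM at time 10, and after vehicle 276, 290 and 250 RPM at time 14 and 140, 141 and 141 RPM at time 22. These times lie near the lowest and highest levels of their arm, so the lack of overlap between them is no test of a rhythm. Its log2 amplitude was 0.35 ± 0.08 with a peak at time 12.4 in night-fed (adjusted p = 0.0097), 0.26 ± 0.04 at 11.6 in ad libitum (adjusted p = 0.0015), 0.38 ± 0.07 at 12.2 in vehicle-treated (adjusted p = 0.0060), 0.26 ± 0.06 at 10.4 in Albumin-Cre (adjusted p = 0.015) and 0.23 ± 0.06 at 11.8 in Tsc1 knockout livers (adjusted p = 0.034). It did not pass in the Bmal1 knockout without injection (0.11, adjusted p = 0.45), with vehicle (0.12, 0.90) or with rapamycin (0.04, 0.97), nor with arrhythmic feeding (0.12, 0.31) or after loss of Raptor (0.16, 0.17). Each of the 5 calls was lost without at least 1 replicate number, and the tests of a rhythm difference called 0 members in 6 comparisons by limma and edgeR. At an unadjusted p under 0.05 these held 2 nuclear members for arrhythmic and 5 for ad libitum against night-fed feeding, 3 for the Bmal1 knockout, 0 for either liver deletion and 4 with tunicamycin, and 0 mitochondrial ones. After adjustment the shares of all genes called were 4.62%, 0.854%, 3.09%, 0.00815% (Tsc1), 0% (Raptor) and 4.36%. A loss of the Cox7a2l rhythm in any arm was therefore not shown.

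The other rhythmic members of ad libitum livers peaked close together, from time 10.7 to 11.8. They were led by Atp5md (amplitude 0.45, peak 11.1), a small ATP synthase subunit, Ndufs5 (0.33, 11.0) and Atp5o.1 (0.33, 11.1), with Atp5l (0.30, 11.1) and Cox8a (0.25, 11.2) next. In night-fed livers the rhythmic members peaked from time 12.3 to 19.4, with Ndufs4 the earliest and Atp5g1 the latest.

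**Figure D5:**
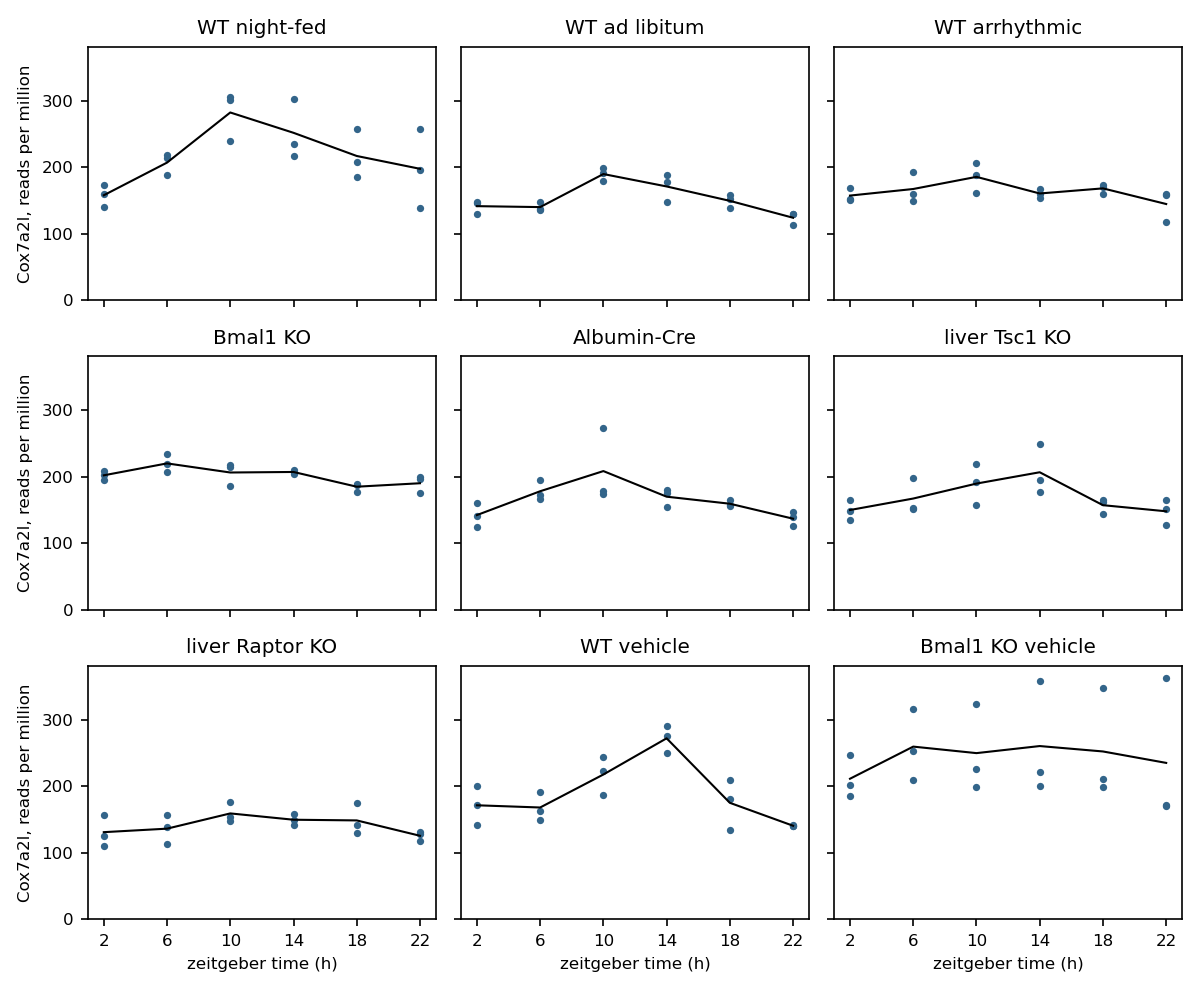
Cox7a2l in RPM (y axis) by zeitgeber time (x axis, hours after lights on) in 9 arms; points are libraries and lines join the means of 3. Night-fed livers rise to 240 to 306 RPM at time 10, while in vehicle-treated Bmal1 knockout livers 1 library at each time (replicate 1, 247 to 363 RPM) lies above the other pair.

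Other lists of the mitochondrion were counted for comparison. Of 49 tested assembly factors of the complexes 19 fell and 9 rose in ad libitum against night-fed livers. Of 78 mitochondrial ribosomal proteins 29 fell and 12 rose there, beside 24.5% and 28.5% of all genes. After AZD8055 at dusk 38 mitochondrial ribosomal proteins rose and 8 fell, beside 27% and 23.8% of all genes. In the uninjected Bmal1 knockout 43 rose and 18 fell, beside 34.3% and 37.4% of all genes. Of 32 genes for mitochondrial transcription and RNA handling 13 rose and 13 fell in that knockout, near the same shares over all genes. Tfam, which packs mitochondrial DNA and starts its transcription, was lower there (-1.0 ± 0.10), and Slirp, which stabilises mitochondrial mRNAs, by 1.42 ± 0.10, while Polrmt, the mitochondrial RNA polymerase, was higher by 0.92 ± 0.13. After loss of Raptor Tfam fell by 0.20 and Slirp by 0.65, and after AZD8055 at dusk Tfam fell by 0.35 and the transcription factor Tfb2m by 0.63. Ppargc1a and Esrra, a coactivator and a receptor that drive respiratory genes, rose by 0.66 and 0.44 after loss of Tsc1. Cytosolic ribosomal proteins, of which 80 were tested, fell for 55 and rose for 6 in ad libitum livers, rose for 61 and fell for 4 after AZD8055 at dusk, rose for 44 and fell for 12 after loss of Raptor, and fell for 60 and rose for 1 after loss of Tsc1. Beside these, 24.5% of all genes fell and 28.5% rose in ad libitum livers, and 27% rose and 23.8% fell after AZD8055 at dusk. After loss of Raptor 19.6% of all genes rose and 22.7% fell, and after loss of Tsc1 18% fell and 18.6% rose. The lists were chosen with earlier results known, and no test across a list was made.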

How the data were processed

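Liver RNA was measured in 282 libraries by 3′ end sequencing (TRIzol extraction of the lateral lobe, QuantSeq 3′ mRNA kit FWD, per the labels' protocols). Per the submitters' processing notes, STAR 2.7.3a, SAMtools and the mm10 (GRCm38.p6) build were used. Which program counted the reads, and its strand setting, annotation and normalization, is not given in the sources used here. Per library, the authors' deposited signal values are whole reads divided by a constant factor. Multiplying by that factor gave whole reads for 100% of values (tolerance 0.01), except 197 genes in the Raptor arm, which were left out of fits with it. The 2 tables hold 234 and 48 libraries and were analysed apart. No 2 libraries held equal values.

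Reads were scaled to RPM with TMM factors (edgeR 4.0.16). Genes that averaged 1 RPM or more were tested with limma 3.58.1 (R 4.3.3, trend) on log2(RPM + 0.5), so fold changes of low genes are understated. Each arm and time had its own mean; daily means were contrasted, and 24 h rhythms were tested as a cosine and sine pair, in separate fits for feeding, Bmal1 with injections, liver deletions, AZD8055 and tunicamycin. Benjamini-Hochberg adjustment ran over all genes tested, and calls were made at 0.05. The design had assumed counts; with this unit limma was the main test, and edgeR's quasi-likelihood test on the recovered reads was added (for ad libitum against night-fed feeding it called 6461 genes and limma 6579). Alternatives were DESeq2 size factors (1.42.0), scaling without mitochondrial reads, no filter, pseudocounts of 0.1 and 2, a replicate block and omission of every replicate number in turn. Chosen after the data were seen were edgeR, leaving out 6 libraries, leaving out members with shared 3′ ends, differences of differences, and means over times by replicate number. The fits were tested on simulated data. Shared 3′ ends are 50-base words of a member's last 200 transcript bases found in another annotated gene. Atp5md, Atp5o.1 and Atp5pb were not found in the annotation by these names and were left out with the members that share an end.

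Members and gene lists were chosen with earlier results of these data known. Named by rule were up to 4 nuclear members of smallest adjusted p in each direction and up to 3 mitochondrial mRNAs in each comparison, up to 4 rhythmic members of largest amplitude, the paralog sets, the Sdh genes, the mitochondrial mRNAs, and up to 3 genes of each other list; Atp5j, Atp5l, Cox7c, Ndufb4, Ndufb9, Uqcrfs1, Polrmt and other genes outside these were named after their values were seen.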

Additional observations from a re-analysis of the deposited data

Results flagged for a closer look

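Among the 12 groups of 4 libraries in the tunicamycin arms, 3 summed values each were tested for a library far from the rest, and 2 were found. In night-fed mice with tunicamycin at time 22, the lowest log2 ratio of mitochondrial to nuclear subunit RNA was 3.08, apart from the other 3 libraries. In livers given AZD8055 and tunicamycin at time 16, the highest nuclear sum was 15878 RPM, apart from the other 3. Some such libraries arise by chance in this many groups.

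The effect of losing Bmal1 differed between uninjected and vehicle-treated mice for 8 mitochondrial and 65 nuclear members, by a test of the difference of the 2 effects. For mt-Nd4l the uninjected minus the vehicle effect was -1.43 ± 0.14 and for mt-Nd6 -2.70 ± 0.33, while for Ndufa10 it was 1.15 ± 0.11, for Atp5g1 1.29 ± 0.14 and for Cox7b -1.53 ± 0.17. The rapamycin effect differed between Bmal1 knockout and wild-type livers for 2 mitochondrial and 10 nuclear members. The knockout minus the wild-type effect was 0.63 ± 0.22 for mt-Nd2 (adjusted p = 0.043), -0.70 ± 0.21 for mt-Nd3 (adjusted p = 0.015) and -0.47 ± 0.12 for Cox5b (adjusted p = 0.0038). None of these 12 passed after averaging by replicate number.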

How the results depend on the processing

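Of the 159 results on single named members, the replicate block and pseudocounts of 0.1 and 2 changed no call, edgeR lost 3, DESeq2 size factors 2, scaling without mitochondrial reads 1 and no filter 7. Leaving out replicate 1, 2 or 3 lost 42, 44 and 38, leaving out replicate 4 (tunicamycin arms only) lost 10 of 12, and averaging by replicate number lost 50 of 134. With 3 or 4 values an arm, and few reads for members near 1 RPM, small differences cannot be resolved.

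Counts of members called after averaging by number were 38 for arrhythmic against night-fed feeding, 2 for arrhythmic against ad libitum, 5 for Bmal1 loss with vehicle, 1 and 0 for rapamycin in wild-type and knockout, 4 for vehicle in wild-type, 11 for Tsc1 loss, 10 and 21 for AZD8055 at dawn and dusk, and 0 and 1 for the tunicamycin feeding and AZD8055 comparisons. Without the 6 libraries, rapamycin in the knockout gave 17 and Albumin-Cre livers 5 rhythmic members. Members found to share no 3′ end gave 31 for Raptor loss. No filter gave 1 for the tunicamycin feeding comparison, and 1 and 2 rhythmic members after vehicle in wild-type and AZD8055 at dusk. edgeR gave rhythmic counts of 1 after vehicle in wild-type, 2 after Tsc1 loss, 3 after AZD8055 at dusk and 5 with tunicamycin added, and DESeq2 size factors 1 in the vehicle-treated knockout.

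Leaving out a replicate number gave 42 to 62 calls for arrhythmic against night-fed feeding, 1 to 18 for arrhythmic against ad libitum, 9 to 40 for Bmal1 loss with vehicle, 9 to 11 and 1 to 3 for rapamycin in wild-type and knockout, 14 to 41 for vehicle in wild-type, 15 to 22 for Tsc1 loss, 15 to 37 for AZD8055 at dawn, and 0 to 6 and 1 to 6 for the tunicamycin comparisons. Rhythmic members ranged from 1 to 3 in night-fed, 0 to 10 in ad libitum, 0 to 0 in arrhythmically fed, 0 to 1 in vehicle-treated wild-type, Albumin-Cre and Tsc1 knockout livers, 0 to 0 and 0 to 1 with AZD8055 at dawn and dusk, and 0 to 8 and 0 to 1 in the tunicamycin arms with AZD8055 and night feeding. The median mitochondrial minus nuclear difference ranged from 0.63 to 1.02 for Raptor loss, 0.83 to 1.25 for vehicle in the knockout, 0.19 to 0.47 for ad libitum and 0.12 to 0.36 for arrhythmic against night-fed feeding, and 0.17 to 0.39 for Tsc1 loss; it changed sign without replicate 1 for vehicle in wild-type (-0.27 to 0.21) and for rapamycin in the knockout (-0.0059 to 0.063).

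Deviations were also correlated between libraries of different groups (an arm at a time) within each of the 5 fits. With the same replicate number the median correlation was 0.011 to 0.064, and 20.1 to 39.7% of pairs were over 0.1. With different numbers the median was -0.035 to -0.0092. These pairs include libraries of the same arm at other times, so whether a number pairs libraries between arms was not tested. With the replicate block the rhythmic members were 26 in night-fed, 19 in ad libitum, 5 in vehicle-treated knockout, 3 in Tsc1 knockout, 6 and 13 with AZD8055 at dawn and dusk, and 1 in night-fed tunicamycin livers, 1 of them mitochondrial in night-fed and 1 in vehicle-treated knockout livers. The shares of all genes called with it were, in the same order, 32.1%, 19.4%, 20.4%, 26.3%, 26.5%, 25.8% and 16.5%. The cause of these changes was not tested.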
